A study of Saccharomyces cerevisiae with 13 samples.

Results

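The upper part of glycolysis turns glucose into triose phosphates, and its genes were followed here in 4 pooled libraries of Saccharomyces cerevisiae. The genes were chosen by name, as the hexokinase genes HXK1 and HXK2, the glucokinase gene GLK1, the isomerase gene PGI1, the phosphofructokinase genes PFK1 and PFK2, the aldolase gene FBA1 and the triose phosphate isomerase gene TPI1. Of these 8 genes, 6 have a transcript model among the 4280 analysed, namely HXK2, PGI1, PFK1, PFK2, FBA1 and TPI1. HXK1 (YFR053C) and GLK1 (YCL040W) were not analysed here, so that the step of sugar phosphorylation is described by HXK2 alone.

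The strain was BY4742, a haploid laboratory strain of mating type alpha, grown in rich medium with glucose. Cultures were in log growth at 30° (NRO and total RNA) or had been held for 20 min at 39° (NRO (HS) and total RNA (HS)), and the groups carry no other treatment. The NRO libraries were made from nascent RNA, which polymerases that were already engaged had extended with biotin-UTP in cells permeabilized with sarcosyl, and which was then captured on streptavidin beads. The total RNA libraries were made from the same kind of extract without the capture and stand for steady-state RNA. By the study's estimate a minor part of the NRO libraries is total RNA, and no separate estimate is given for heat shock. The NRO values were not corrected for this part. The labels list 3 libraries for each group, but the deposited values are 1 pooled value per gene and group, so that no spread between cultures is available and no comparison below has a replicate check.

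The measure is the read density, that is the mean read depth over a gene per 1000000 bases of the aligned reads that were kept in the library. Because it is taken per base, levels of different genes are set side by side here, but with a limit in NRO. The study states that nascent RNA was captured before fragmentation, so that depth falls toward the 3′ end even with evenly spread polymerases. Comparisons between genes that use NRO values may therefore depend on region length, from 634 bases in TPI1 to 3193 in PFK1. No correction for length was made. Reads were estimated as the summed depth over the read length, and 95% intervals from these reads (exact Poisson for a level, exact binomial for a ratio) cover counting error only. An interval that excludes 1 therefore compares pooled libraries, not conditions. The libraries differed in depth, from an estimated 378273 kept reads in NRO (HS) to 2491144 in NRO, after the filters on alignments and rDNA, and the 6 genes held between 4323 reads in NRO (HS) and 36071 in NRO. The study also reports that a smaller part of the reads could be mapped in NRO (HS) than in the other libraries. The labels were checked by a few genes. LYS2, which is deleted in BY4742, was listed at 0 in all 4 pooled libraries, and STE2, the receptor gene of the opposite mating type, held 2 reads in total RNA and 0 in the other libraries. All 7 heat shock genes that were listed for this purpose were at least 4.36-fold higher in total RNA (HS) than in total RNA.

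In yeast, glycolysis is the main source of ATP in glucose medium, and its enzymes are among the most abundant proteins of the cell. Hexokinase commits glucose to the cell as glucose phosphate, phosphoglucose isomerase converts it to fructose phosphate, and phosphofructokinase adds a further phosphate in the main regulated step of the pathway. Aldolase then splits the product into a pair of triose phosphates, which triose phosphate isomerase interconverts. Glycolytic genes of yeast are known to share the activators Gcr1 and Rap1.

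Each region lay on the sacCer2 build, left out the first part of the transcript after the TSS, where polymerase can be enriched, held no intronic bases and was mappable over 100% of its length. HXK2 (YGL253W) was measured over 1483 bases of chromosome VII (24101 to 25583, plus strand). PGI1 (YBR196C) was measured over 1646 bases of chromosome II (612093 to 613738, minus strand). The regions of PFK1 (YGR240C, chromosome VII, 970571 to 973763, minus strand) and PFK2 (YMR205C, chromosome XIII, 671594 to 674630, minus strand) were of similar length, 3193 and 3037 bases. FBA1 (YKL060C, chromosome XI, 326024 to 326942, minus strand) was measured over 919 bases, and TPI1 (YDR050C, chromosome IV, 555668 to 556301, minus strand) over 634 bases. These coordinates give the region used and not the whole gene.

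The 6 genes spanned a wide range of read density, with FBA1 at the top and PFK1 at the bottom of all 4 libraries. The highest and the lowest gene were 33.8-fold apart in NRO, 76.2-fold in total RNA, 132-fold in NRO (HS) and 130-fold in total RNA (HS). FBA1 made up 67.4% of the summed density of the 6 genes in NRO, 69.2% in total RNA, 71.3% in NRO (HS) and 59.4% in total RNA (HS). In log growth the order was FBA1, TPI1, PGI1, PFK2, HXK2 and PFK1 in both NRO and total RNA. After heat shock PGI1 and PFK2 had changed places in both libraries, and the rest of the order was kept. Every pair of neighbours in these orders differed beyond its counting interval, the closest being TPI1 and PGI1 in NRO, with a ratio of 1.14 (1.09 to 1.20). The plot of read densities shows this order gene by gene.

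**Figure D1:**
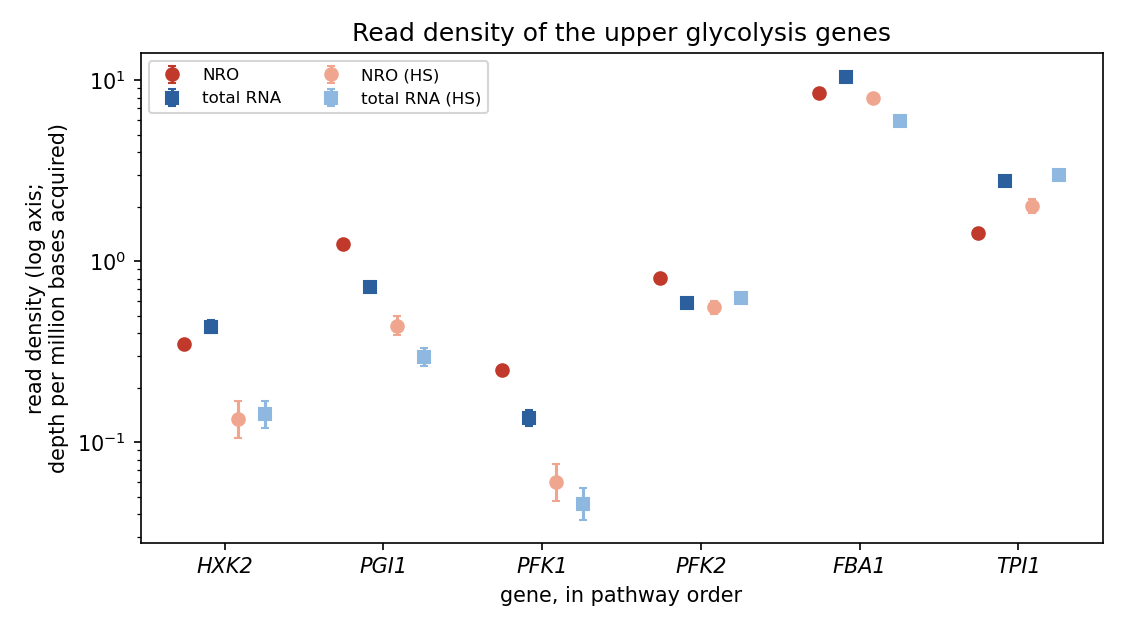
Read density of the 6 upper glycolysis genes (log axis, depth per 1000000 bases acquired) in pathway order, with 1 point per pooled library and bars for the exact Poisson 95% counting interval. FBA1 lies highest in every library, at 5.96 to 10.4, and PFK1 lowest, at 0.0457 to 0.250.

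After heat shock, the upper glycolysis genes did not move as a block. HXK2, PGI1 and PFK1 had from 2.43-fold to 3.04-fold lower read densities in total RNA (HS) than in total RNA, FBA1 was 1.75-fold lower, and the intervals of PFK2 and TPI1 included no change. In the nascent RNA, HXK2, PGI1 and PFK1 were again lower, by 2.59-fold to 4.14-fold, whereas TPI1 was 1.42-fold higher. In total RNA, 3 of the 6 genes were at or below 0.5-fold, against 27.7% of the 3282 models with a value in both libraries, and 0 of 6 were at or above 2-fold, against 10.2%. In NRO, the same 3 genes were at or below 0.5-fold, against 23.1% of 2894 models, and 0 of 6 were at or above 2-fold, against 16.2%. For the 6 genes, the log2 changes had a median of -1.04 in total RNA and of -0.96 in NRO. Over all models tested the medians were -0.41 and -0.10. Relative to the median of all models, HXK2 and PFK1 remained below 0.5-fold in total RNA, and PGI1 was at -0.87 on the log2 scale, whereas PFK2 and TPI1 were at 0.49 and 0.51. With this centring 16.1% of all models were at or above 2-fold and 17.6% at or below 0.5-fold in total RNA, and the share of higher models among those past the limit went from 26.9% to 47.7%. Among the 1097 models with at least 50 reads in both total RNA libraries, 11.9% were at or below 0.5-fold and 7.02% at or above 2-fold. Among the 876 models with as many reads in both NRO libraries, these shares were 9.59% and 16.3%. This limit on reads was chosen after the data had been seen, and the 6 genes all pass it.

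**Figure D2:**
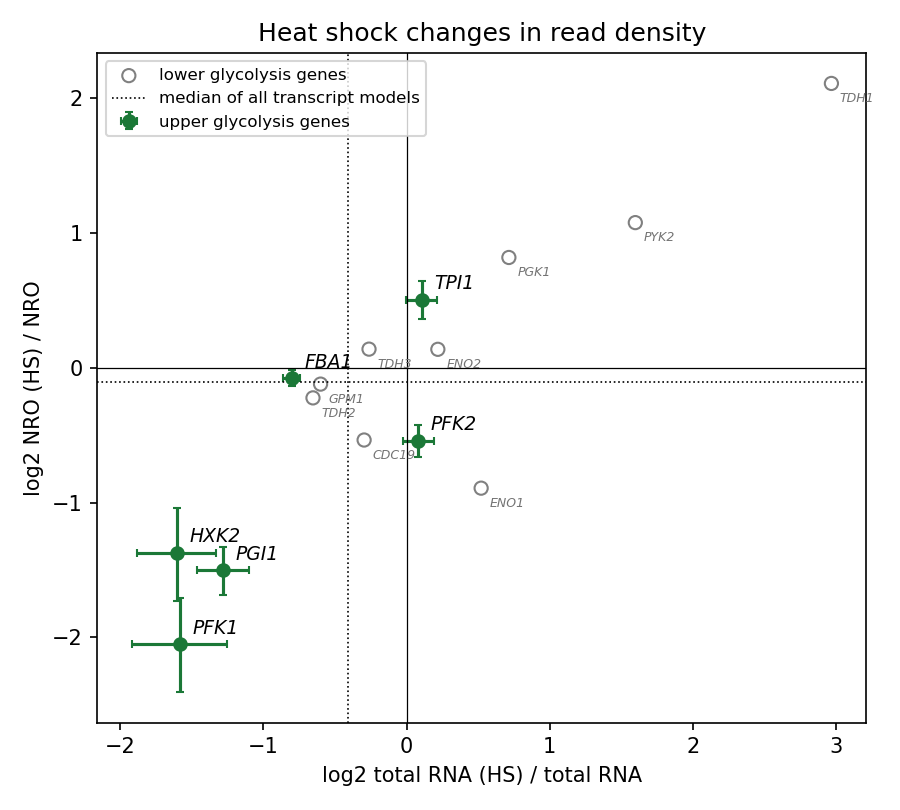
Log2 change of read density after heat shock in total RNA (horizontal) and in NRO (vertical) for the 6 upper glycolysis genes (filled, bars are exact binomial 95% counting intervals) and the 9 lower glycolysis genes (open). HXK2, PGI1 and PFK1 lie at the lower left, between -1.28 and -1.60 in total RNA, and dotted lines mark the medians of all models, -0.41 and -0.10.

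HXK2 encodes the main hexokinase of cells growing on glucose, a protein that also takes part in glucose repression in the nucleus. Its read density was 0.348 in NRO, 0.435 in total RNA, 0.134 in NRO (HS) and 0.143 in total RNA (HS), from an estimated 1284, 577, 75 and 139 reads. Each heat shock value thus lay below the log growth value of the same kind of library. The total RNA ratio was 0.329 (0.271 to 0.396) and the NRO ratio 0.386 (0.302 to 0.487). Among all models, its rank from the top moved from 255 to 725 in the nascent RNA and from 241 to 600 in total RNA.

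PGI1 encodes phosphoglucose isomerase, the only enzyme of this step in yeast. Its read density was 1.25 in NRO, 0.718 in total RNA, 0.440 in NRO (HS) and 0.295 in total RNA (HS), from 5115, 1056, 274 and 319 reads. Each heat shock value was again below the log growth value of the same kind of library. Within each condition PGI1 took a larger share of the NRO library than of the total RNA library. The total RNA ratio was 0.411 (0.362 to 0.467) and the NRO ratio 0.353 (0.311 to 0.398). PGI1 was 3.59-fold above HXK2 in NRO but 1.65-fold above it in total RNA, and after heat shock the same ratios were 3.28 and 2.06.

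PFK1 and PFK2 encode the alpha and beta subunits of phosphofructokinase, which assemble into a single enzyme in yeast. The read density of PFK1 was 0.250 in NRO, 0.137 in total RNA, 0.0604 in NRO (HS) and 0.0457 in total RNA (HS), from 1988, 390, 73 and 96 reads. That of PFK2 was 0.807, 0.589, 0.554 and 0.623 in the same order, from 6102, 1599, 637 and 1243 reads. PFK1 was therefore lower after heat shock in both kinds of library, whereas PFK2 was lower in NRO and changed little in total RNA. The NRO ratio of PFK1, 0.242 (0.189 to 0.305), was the lowest among the 6 genes, and its total RNA ratio was 0.335 (0.265 to 0.419). For PFK2 the NRO ratio was 0.687 (0.633 to 0.746), and the total RNA ratio of 1.06 had an interval that included 1 (0.982 to 1.14).

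The subunit genes were thus unequal at each point, and more so after heat shock. PFK2 exceeded PFK1 by 3.23-fold in NRO (3.07 to 3.40) and by 4.31-fold in total RNA (3.86 to 4.83). After heat shock the excess was 9.17-fold in NRO (HS) (7.19 to 11.9) and 13.6-fold in total RNA (HS) (11.1 to 17.0). The ratio of these ratios, after against before heat shock, was 2.84 in the nascent RNA (2.22 to 3.64) and 3.16 in total RNA (2.50 to 4.004), with intervals on the log scale from the reads of the 4 values. The plot of ratios between genes shows that this separation was present in both kinds of library.

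**Figure D3:**
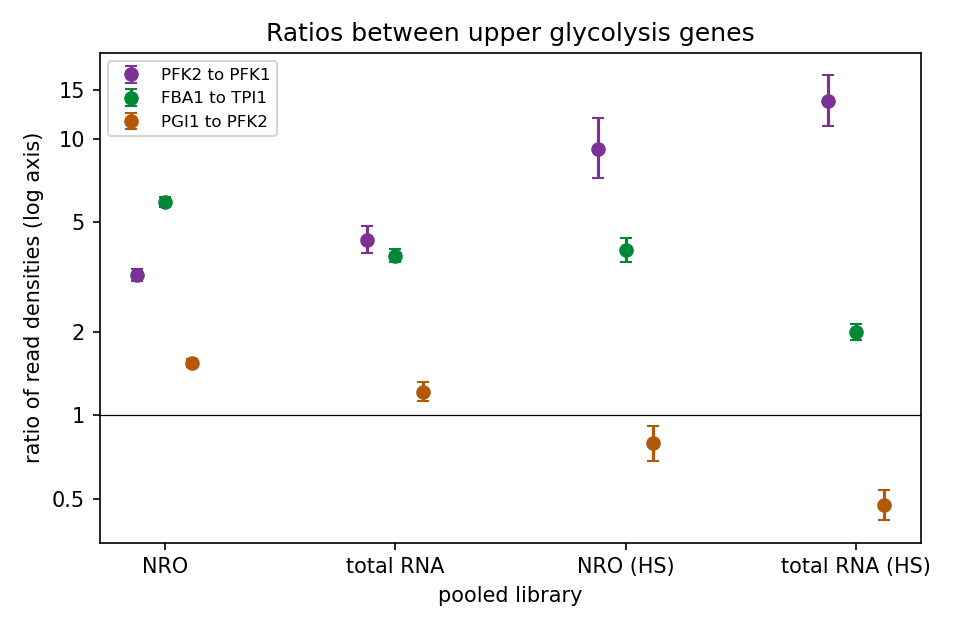
Ratio of read densities between genes within each pooled library (log axis, bars are exact binomial 95% counting intervals). The PFK2 to PFK1 ratio goes from 3.23 and 4.31 in log growth to 9.17 and 13.6 after heat shock, the FBA1 to TPI1 ratio from 5.91 and 3.77 to 3.95 and 2.01, and the PGI1 to PFK2 ratio lies above 1 in log growth and below 1 after heat shock.

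FBA1 encodes fructose bisphosphate aldolase, the enzyme that cleaves the sugar. Its read density was 8.44 in NRO, 10.4 in total RNA, 7.995 in NRO (HS) and 5.96 in total RNA (HS), from 19327, 8547, 2779 and 3595 reads. These are among the highest values of all models, at ranks 7, 4, 7 and 14 from the top. Total RNA was lower after heat shock, with a ratio of 0.573 (0.551 to 0.596), while the NRO ratio was 0.947 (0.910 to 0.986). The NRO ratio of FBA1 lay above 1 under other scalings, at 1.02 when centred on the median of all models and at 1.03 when scaled to the depth within transcript models, so that no direction is given for it.

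TPI1 encodes triose phosphate isomerase. Its read density was 1.43 in NRO, 2.76 in total RNA, 2.02 in NRO (HS) and 2.97 in total RNA (HS), from 2255, 1563, 485 and 1236 reads. TPI1 was the only one of the 6 genes whose values were higher after heat shock in both kinds of library. The NRO ratio was 1.42 (1.28 to 1.56), and the total RNA ratio of 1.08 had an interval that just included 1 (0.999 to 1.16). FBA1 and TPI1, which act one after the other, drew closer to each other. The FBA1 to TPI1 ratio went from 5.91 to 3.95 in the nascent RNA and from 3.77 to 2.01 in total RNA.

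The ratio of NRO to total RNA, which the study uses as an inverse estimate of nascent transcript stability, placed the 6 genes on both sides of 1 in log growth. The ratio was 1.83 for PFK1 (1.64 to 2.05), 1.74 for PGI1 (1.63 to 1.86) and 1.37 for PFK2 (1.30 to 1.45). Hence these genes took a larger share of the NRO library than of the total RNA library, which does not compare amounts of nascent and total RNA. It was 0.812 for FBA1 (0.791 to 0.833), 0.799 for HXK2 (0.723 to 0.883) and 0.518 for TPI1 (0.485 to 0.553). None of the 6 genes was at or above 2-fold, against 21.8% of 3400 models, or at or below 0.5-fold, against 19.0%. Their median log2 ratio was 0.08, beside -0.01 over all models. Among the 1524 models with at least 50 reads in both libraries, these shares were 12.8% and 18.7%. With a limit of 1.5-fold, PFK1 and PGI1 were above it, against 31.4% of all models, and TPI1 was below it, against 31.3%.

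After heat shock, the ratios lay closer together for some genes and crossed 1 for others. PGI1 had the highest ratio, 1.49 (1.26 to 1.76), followed by FBA1 with 1.34 (1.28 to 1.41) and PFK1 with 1.32 (0.962 to 1.81). HXK2 was at 0.937 (0.698 to 1.25), PFK2 at 0.890 (0.807 to 0.980) and TPI1 at 0.681 (0.612 to 0.757), so that TPI1 had the lowest ratio in both conditions. None of the 6 genes was at or above 2-fold, against 24.4% of 2831 models, or at or below 0.5-fold, against 12.9%. Among the 812 models with at least 50 reads in both libraries, which include the 6 genes, the shares were 11.0% and 6.53%. The plot of ratios in both conditions shows the crossing of FBA1 and PFK2.

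**Figure D4:**
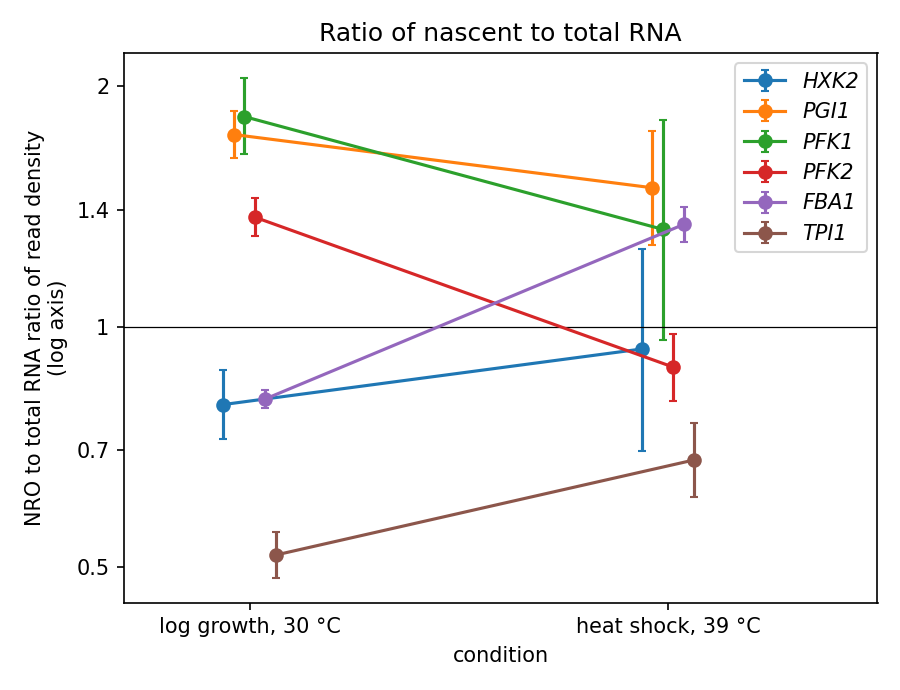
NRO to total RNA ratio of read density (log axis, bars are exact binomial 95% counting intervals) for the 6 genes in log growth and after heat shock, with a line joining the values of a gene. FBA1 goes from 0.812 to 1.34 and PFK2 from 1.37 to 0.890, while TPI1 stays lowest.

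The shift of the ratio, that is the value after heat shock over the value in log growth, rests on the same 4 read densities and shows whether nascent and total RNA of a gene moved by the same factor. It was 1.65 for FBA1 (1.56 to 1.75) and 1.32 for TPI1 (1.16 to 1.49), for which the ratio was higher after heat shock. It was 0.649 for PFK2 (0.582 to 0.725) and 0.723 for PFK1 (0.523 to 0.998), for which it was lower. For HXK2 the shift was 1.17 (0.872 to 1.58) and for PGI1 0.858 (0.720 to 1.02), and both intervals include 1. Centring on the median brought the share of higher models among those past the limit from 65.5% to 52.8% for the ratio after heat shock and from 61.3% to 49.7% for the shift. None of the 6 genes had a shift at or above 2-fold, against 23.7% of 2781 models, or at or below 0.5-fold, against 14.9%. Among the 790 models with at least 50 reads in each library the shares were 15.2% and 5.44%. The median log2 shift of all models was 0.20, and relative to it TPI1 was at 0.20, FBA1 at 0.53 and PFK2 at -0.82.

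The pattern over the 4 libraries was compared by the distance between log2 read densities, each centred on the mean of its own gene, against 789 other models with at least 50 reads in each library. Within the 6 genes, PGI1 and PFK1 were closest, at a distance of 0.442, and PFK1 and TPI1 were farthest apart, at 2.57. The distance between PFK1 and PFK2 was 1.66. Across all models, the nearest gene to PGI1 was PMA1 (0.201), which encodes the proton pump of the plasma membrane. The nearest to PFK1 was GAS1 (0.296), a glucan-modifying enzyme of the cell wall, and the nearest to HXK2 was YEF3 (0.349), a translation elongation factor. Each of these genes was lower after heat shock in both kinds of library, with total RNA ratios of 0.422 for PMA1, 0.400 for GAS1 and 0.454 for YEF3. Their likeness follows from the choice by distance over the same 4 libraries and is not a separate result. The nearest to PFK2 was FPR1 (0.216), a prolyl isomerase that binds rapamycin, the nearest to FBA1 was ZDS1 (0.126) and the nearest to TPI1 was YIL108W (0.0937). These distances rest on 4 values per gene and are a description.

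The 9 genes of lower glycolysis lead from the triose phosphates to pyruvate. Their median log2 change in total RNA was 0.22 after heat shock, against -1.04 for the upper genes. Of the 9 lower genes 0 were at or below 0.5-fold, against 27.7% of all models, and 2 at or above 2-fold, against 10.2%. Among the models with at least 50 reads in both total RNA libraries, as these genes hold, the shares were 11.9% and 7.02%. The difference between the lists was not tested. The medians compare unlike sets, since HXK1 and GLK1 are missing from the upper list, whereas all 9 listed lower genes were analysed. The highest total RNA ratio was that of TDH1, 7.82 (6.53 to 9.44), a glyceraldehyde phosphate dehydrogenase gene, which was also 4.31-fold higher in NRO. The lowest total RNA ratio was that of TDH2, 0.636 (0.557 to 0.724), a paralog of TDH1. Of the bases of TDH2 79.7% are mappable, of those of TDH1 90.1% and of those of ENO1 91.2%. In NRO the lowest was ENO1, an enolase gene, at 0.538 (0.469 to 0.616), which had the highest NRO to total RNA ratio of the list in log growth, 4.33. Of the 3 analysed genes of ethanol fermentation, PDC1 had a total RNA ratio of 0.845 and ADH1, of which 87.5% of the bases are mappable, one of 1.73. PDC5 was at 5 reads or fewer in every library.

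The branches that leave upper glycolysis are given beside the shares of all models, which were 10.2% at or above 2-fold and 27.7% at or below 0.5-fold in total RNA, and 16.2% and 23.1% in NRO. Of 15 genes that link glucose phosphate with trehalose and glycogen, 8 were at or above 2-fold in total RNA and 3 at or below 0.5-fold, with a median log2 change of 1.26. The highest ratio was that of PGM2, a phosphoglucomutase gene, at 11.4 (7.06 to 19.4), from 19 and 159 reads. The lowest among genes with at least 10 reads was that of the glycogen synthase gene GSY1, at 0.384 (0.177 to 0.765), from 39 and 11 reads. The NRO ratio of GSY1 went the other way, at 3.23 (1.89 to 5.36), from 49 and 24 reads. PGM1, also a phosphoglucomutase gene, fell short of the limit of 10 reads. Its total RNA ratio was 0.143 (0.0505 to 0.332), from 57 and 6 reads, and its NRO ratio 0.659 (0.233 to 1.52). In NRO 7 of the 14 genes with a value were at or above 2-fold and 1 at or below 0.5-fold. The pentose phosphate branch starts from the same glucose phosphate. Of its 7 genes with a total RNA value, 1 was at or above 2-fold and 0 at or below 0.5-fold. The 1 gene was SOL4, at 15.5 (7.54 to 37.0), from 8 and 91 reads. Its NRO ratio was 37.9 (17.7 to 92.9), from 8 and 46 reads. In NRO, 2 of 8 genes were at or above 2-fold and 2 at or below 0.5-fold, namely the phosphogluconate dehydrogenase gene GND1 at 0.399 and TKL1 at 0.407. ZWF1, the gene of the first enzyme of this branch, had a total RNA ratio of 1.83, and TKL1, a transketolase gene, had 0.591.

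Glycerol is made from a product of aldolase. Of the 4 genes of this branch, 3 were at or above 2-fold in total RNA and 1 in NRO, and the highest ratios were those of the phosphatase gene GPP2, 4.06 in total RNA and 2.82 in NRO. Of the 9 analysed genes for regulators of glycolytic genes, 0 were at or above 2-fold in total RNA and 2 at or below 0.5-fold. These 2 genes, SNF4 and MED8, held 8 and 11 reads in total RNA, and the intervals of their ratios include 1. In NRO, 4 of 8 regulators were at or below 0.5-fold and 1 at or above 2-fold, with a median log2 change of -1.05. The lowest of these was REG1, at 0.268 (0.157 to 0.429), and the 1 gene above 2-fold was SNF4, from 1 and 3 reads. GCR1 had a total RNA ratio of 0.916, the highest of these regulators among those with at least 10 reads, and an NRO ratio of 0.528. EMI2, a relative of GLK1 with a possible role as a minor sugar kinase, had a total RNA ratio of 1.66 and an NRO ratio of 0.536. The genes that set the level of fructose bisphosphate signals (PFK26, PFK27 and FBP26) held 11 reads or fewer in total RNA and total RNA (HS) and are not described further. Of the genes that lead from fructose phosphate to chitin and mannose, GFA1 held 9 reads or fewer in both total RNA libraries. PMI40, the mannose phosphate isomerase gene, went from 80 to 6 reads in total RNA, a ratio of 0.103 (0.0365 to 0.233), and its NRO ratio was 0.313 (0.133 to 0.631). The plot of total RNA changes by gene list shows the upper genes beside these branches.

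**Figure D5:**
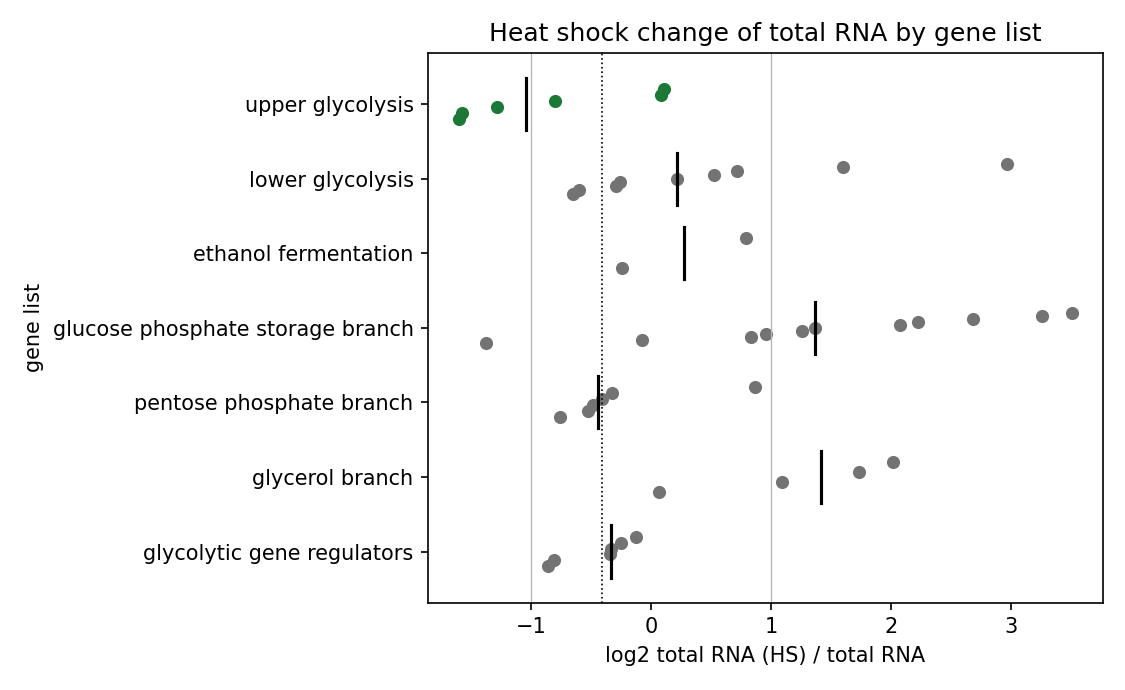
Log2 change of total RNA after heat shock for the 6 upper glycolysis genes and for the genes of 6 linked lists with at least 10 reads in both total RNA libraries (1 point per gene, vertical bars are list medians, the dotted line is the median of all models, grey lines mark 2-fold). The median of the upper genes lies at -1.04, below those of lower glycolysis (0.22), ethanol fermentation (0.28 over 2 genes), the storage branch (1.37 over the 11 genes plotted), the pentose phosphate branch (-0.45 over 6 genes), the glycerol branch (1.42) and the regulators (-0.34 over 6 genes). HXK1 and GLK1 are missing from the upper genes.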

How the data were processed

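Alignment by the authors used Maq and the sacCer2 build, with a mapping quality of at least 30 and without rDNA. For each group the 3 replicates were merged, and the deposited coverage signal is the summed and mean depth of each transcript model per 1000000 bases acquired, which by the common step are the bases of the reads left after these filters. Values from the mappable nonintronic bases were used, with other base sets as alternatives. The other 12 columns (3 in each pooled library) were not used.

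From the deposited depths, 1 base of depth was recovered as their common step. The read length that divided most of the low depths was used, which gave 36 bases, but 38 in total RNA, although the methods state 36. The resulting 894262 kept reads in total RNA are fewer than the study reports, so that its read numbers here may be somewhat low. Ratios used genes with a density above 0 in the libraries compared. No p-value was computed, since each group has 1 pooled value. A fold limit of 2 (0.5) was used for every ratio. The study uses 2-fold for higher total RNA, and its use for lower values and for other ratios was chosen here. Gene names came from the R64 annotation, and its coordinates were not used.

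The members and gene lists were chosen with earlier results of these data known. Named genes are the 6 members, the nearest gene to each by pattern, and the highest and lowest gene of each list among those with at least 10 reads. PDC5, PGM1, SOL4, SNF4, MED8, PFK26, PFK27, FBP26, GFA1 and PMI40 fall outside this rule and were named after their values were seen. Steps were tested on simulated data. The NRO library from 3′ ends was not analysed here. Tables were handled in pandas 2.3.3 and numpy 2.4.6 under Python 3.11.15, intervals came from scipy 1.17.1, and plots from matplotlib 3.10.9. Alternatives were other scalings, base sets, fold limits and read limits and a pseudocount.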

Additional observations from a re-analysis of the deposited data

Results flagged for a closer look

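For PFK2 the heat shock change had opposite directions in the nascent and the total RNA, with a ratio of 0.687 in NRO and of 1.06 in total RNA. The interval of the latter includes 1 (0.982 to 1.14). The NRO to total RNA ratio of PFK2 lay above 1 in log growth (1.37) and below 1 after heat shock (0.890), and that of FBA1 lay below 1 in log growth (0.812) and above 1 after heat shock (1.34). These differences were not tested across replicates, since each group has 1 pooled value.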

How the results depend on the processing

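No paired analysis was possible because the deposited values are pooled over the replicates of each group, so that neither a replicate block nor leaving out a replicate could be computed. The share of HXK1 among the hexose phosphorylation genes was not run, since HXK1 and GLK1 were not analysed here. Of the counts of members past the fold limit, 72 of 76 values under other settings stayed within 1.5 times the value reported. The other 4 came from the fold limit of 1.5, with 2 genes above and 1 below it in the NRO to total RNA ratio in log growth, beside 31.4% and 31.3% of all models, and 1 above and 1 below it in the heat shock shift, beside 36.7% and 24.6%. A limit of 2 gave 0 in each. In total RNA the count of lowered genes was 3, but 2 with centring and 4 with the limit of 1.5, both within 1.5 times. The other base sets could change no count of these fully mappable genes without introns, and the read limits could drop none of them. For these settings the outcome was fixed in advance. All 12 PFK1 to PFK2 ratios and 121 of 138 ratios of single genes stayed within their counting intervals. None of the ratios of single genes past the fold limit changed direction. The ratios under the other base sets were bound to stay, because each gene is fully mappable and holds no intronic bases. Only the pseudocount could move the PFK1 to PFK2 ratios. Only FBA1 in NRO changed sides of 1. Of the shares of all models past the limit, 29 of 76 moved by more than 1.5 times, under a pseudocount of 0.01, a limit of 10 or 50 reads, the fold limit of 1.5 or centring. Reads of 36 bases in every library changed no counting interval by more than 5% in width. NRO (HS) held 73 reads for PFK1 and 75 for HXK2, which limits their nascent ratios, and errors between cultures are not covered.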
